A study of Homo sapiens with 56 samples.

Results

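The genes described here are 44 that build and time mitosis: the mitotic cyclins and kinases, the spindle checkpoint, the kinetochore, the spindle motors and the anaphase and cytokinesis machinery. They were taken by symbol from a list of mitosis and spindle checkpoint genes and make up 44 of the 16485 gene identifiers in the table of the first 4 cell lines and 44 of the 16454 in the table of the last 3. All 44 had enough counts to be tested in every line. The series asked how 2-methylisocitrate (2-MiCit), an intermediate of the microbial methylcitrate cycle of propionate breakdown, alters colorectal cancer cells, under a title on chemotherapy and the microbiota. RNA was sequenced from 7 established human colorectal cancer lines of epithelial cell type and labelled wild-type genotype: HCT116, DLD1, LoVo and SW948 in the first table, and HT29, SKCO1 and SW1417 in the last. In each line 4 libraries came from cells given 10 mM 2-MiCit and 4 from control cells given its vehicle, water. No other agent is named for any group, the growth protocol names the 4 lines of the first table, and how long the cells were treated was not given in any source used here.

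Cells enter mitosis when CDK1, bound to cyclin B, becomes active, and PLK1 and the Aurora kinases then drive centrosome separation, spindle assembly and chromosome alignment. The spindle checkpoint, in which TTK, BUB1, BUB1B, BUB3 and MAD2L1 act at unattached kinetochores, holds back CDC20, the activator of the anaphase-promoting complex (APC/C). Once every chromosome is attached, CDC20 is released, cyclin B and securin are destroyed, separase opens cohesin, and the cell divides. Most of these genes are transcribed in a wave in G2 and M phase that depends on CCAAT boxes bound by NF-Y and on a short element, the cell cycle genes homology region, read by the DREAM and MuvB complexes with B-MYB and FOXM1. In bulk RNA, fewer cells in G2 and M phase and less of these RNAs per cell cannot be told apart.

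The start regions of 6 of these genes, with and without such elements in the stretch shown, are printed because such regions are known to hold the elements that time this wave. RefSeq promoters (GRCh38.p14, 250 bases before to 50 bases after the start) were matched for 38 of the 44 genes. The other 6 (BUB3, TTK, UBE2C, AURKA, BIRC5 and TPX2) had no entry. For the 5 genes with more than 1 entry, the first was used. The sequences below run 5′ to 3′ along the strand of the gene and are the 150 bases just before the start. Capitals mark the CCAAT box and the homology region, searched as TTTGAA and as TTTAAA, on either strand.
CCNB1 promoter, chr5:69167000-69167149, plus strand: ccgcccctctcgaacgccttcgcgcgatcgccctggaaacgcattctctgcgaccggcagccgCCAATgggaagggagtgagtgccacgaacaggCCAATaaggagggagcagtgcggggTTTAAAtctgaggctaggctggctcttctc
CDC20 promoter, chr1:43358831-43358980, plus strand: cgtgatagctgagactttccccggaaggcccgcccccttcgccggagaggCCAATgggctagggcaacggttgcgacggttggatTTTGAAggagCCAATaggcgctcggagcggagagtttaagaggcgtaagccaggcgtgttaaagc
DLGAP5 promoter, chr14:55191586-55191735, minus strand: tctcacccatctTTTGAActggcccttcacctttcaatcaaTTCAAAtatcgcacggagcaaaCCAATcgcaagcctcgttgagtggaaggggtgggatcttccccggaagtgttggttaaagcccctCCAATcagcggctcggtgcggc
BUB1 promoter, chr2:110678064-110678213, minus strand: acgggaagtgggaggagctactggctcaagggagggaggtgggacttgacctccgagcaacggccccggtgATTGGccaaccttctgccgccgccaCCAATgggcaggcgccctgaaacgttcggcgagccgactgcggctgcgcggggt
KIF2C promoter, chr1:44739687-44739836, plus strand: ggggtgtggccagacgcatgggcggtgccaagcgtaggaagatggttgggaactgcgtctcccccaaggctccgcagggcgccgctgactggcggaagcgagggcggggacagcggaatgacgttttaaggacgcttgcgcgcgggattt
NDC80 promoter, chr18:2571407-2571556, plus strand: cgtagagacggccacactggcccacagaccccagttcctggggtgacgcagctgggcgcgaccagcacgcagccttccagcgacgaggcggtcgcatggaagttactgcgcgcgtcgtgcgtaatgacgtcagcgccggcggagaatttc
CCNB1 and CDC20, lower with 2-MiCit in 4 and 5 of the 7 lines, each held 2 CCAAT boxes, with TTTAAA downstream of both in CCNB1 and TTTGAA between them in CDC20. TTTGAA or TTTAAA, searched on both strands, was found in 33 of the 38 promoters (86.8%), against 24.3% of the 27305 RefSeq promoters of the same length. Those 27305 are 1 per gene symbol and were not limited to the genes tested here. CCAAT was found in 31 of 38 (81.6%), against 35.7% of all promoters, and 17 of 38 (44.7%) held at least 2, against 11.3%. Both kinds of element stood together in 27 of 38 (71.1%), against 9.49% of all promoters. TTTCCCGC or TTTGGCGC, E2F-like sequences typical of genes of S phase, was found in 2 of 38 (5.26%), against 2.31%. Each motif was counted on its own, also where copies overlapped. BUB1 had 2 CCAAT matches and neither TTTGAA nor TTTAAA in this window. KIF2C and NDC80, each lower in 4 lines, had none of these letters in the 150 bases; TTTAAA in KIF2C and TTTGAA in NDC80, on the opposite strand, ran across the start itself. These matches describe letters and do not show binding in these cells.

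Each library of the first 4 lines held 13.8 to 19.4 M counts, and each of the last 3 lines 29.1 to 45.4 M, which gives these lower counting error. The labels number the libraries of a group 1 to 4 without saying whether they came from separate cultures, so the p-values measure how far these libraries differ and may reflect technical spread alone. All 7 epithelial markers (CDH1, CDX2, EPCAM, KRT8, KRT18, KRT19 and VIL1) were listed in both tables. Their summed level, in CPM (counts scaled to library size, for markers without the TMM factors used elsewhere), was 6388 to 7283 in HCT116 with 2-MiCit. In the HCT116 control it was 4575 to 5069 CPM. The part of this difference in the HCT116 results was not tested. No leukocyte marker was listed in the first table, and only ITGAM, at most 0.447 CPM, in the last. Fibroblast markers summed to at most 22.2 CPM and endothelial markers to at most 1.98 CPM.

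Many mitosis and spindle checkpoint genes were called lower with 2-MiCit in 4 of the lines. These were most of them in HT29, HCT116 and SKCO1, and a smaller and less stable number in SW1417. The test was edgeR's quasi-likelihood F test within each line, with Benjamini-Hochberg adjustment over all tested genes and a call at an adjusted p below 0.05; every adjusted p below is from it. In HT29, 37 of the 44 were called lower and 0 higher, where 3.02% of all tested genes were called lower and 4.65% higher. In HCT116, 24 were called lower and 0 higher, where 18% of all tested genes were called lower and 19% higher. In SKCO1, 25 were called lower and 1 higher, against 10.8% of all genes lower and 8.1% higher. In SW1417, 18 were called lower and 0 higher, against 4.05% of all genes lower and 2.94% higher. That count in SW1417 was 7 without 2-MiCit replicate 3, 11 without 2-MiCit replicate 2 or without control replicate 2, 10 without control replicate 3, and 6 when the 3 lines were fitted together. All genes called lower in SW1417 fell as well, from 570 to 303, 344, 394, 336 and 227 in these fits, in that order. With limma on the authors' normalized counts, an alternative chosen after seeing the data, 1 was called lower in SW1417 and 13 in SKCO1 (125 and 761 of all genes). The SW1417 calls followed gene by gene were those of CCNB1, CCNA2, PLK1, AURKB, CENPE, KIF23, TPX2, CDC20 and ANLN. All of these were lost with limma (adjusted p between 0.0703 and 0.346). The other SW1417 calls described below were not followed by gene, and with 1 gene called at most 1 of them held.

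**Figure D1:**
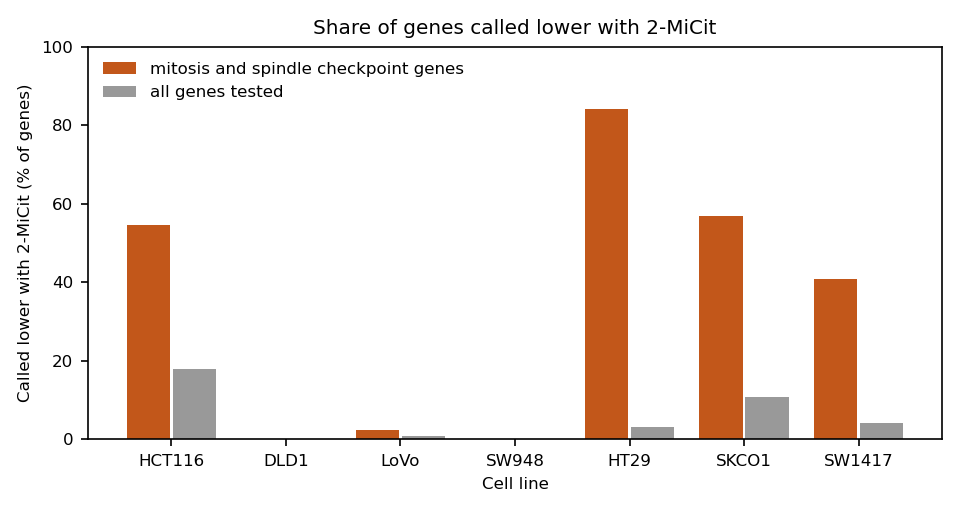
Share of genes called lower with 2-MiCit at an adjusted p below 0.05 (y axis, percent) in each cell line (x axis), for the 44 mitosis and spindle checkpoint genes (orange) and for all genes tested in that line (grey). The orange bar stands far above the grey one in HT29, HCT116, SKCO1 and SW1417, and both are at or near 0 in DLD1, LoVo and SW948.

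The remaining lines of the first table gave few calls. In LoVo, CDC20 alone was called lower and 0 genes higher, against 0.702% of all genes lower and 1.59% higher. In DLD1, 0 of the 44 were called in either direction (0% of all genes lower, 0.148% higher), and in SW948 also 0 (0% in both directions). At an unadjusted p below 0.05, 2 of the 44 were lower and 2 higher in DLD1 (8.64% and 9.05% of all genes). In SW948 4 were lower and 0 higher (3.07% and 3.59% of all genes), and in LoVo 11 were lower and 1 higher (11% and 10.3%). With DESeq2, 1 was called lower in DLD1, 8 in LoVo and 0 in SW948, where 150, 477 and 0 of all genes were called lower.

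The changes were small. The median log2 fold change of the 44 genes, 2-MiCit over control, was -0.25 in HT29, -0.23 in HCT116, -0.10 in SKCO1 and -0.09 in SW1417. Over all tested genes the median was -0.00 in HT29, 0.03 in HCT116, 0.01 in SKCO1 and 0.00 in SW1417. It was 0.00 in DLD1, -0.00 in LoVo and 0.00 in SW948. In LoVo and SW948 the median of the 44 was -0.09, as in SW1417, and in DLD1 it was 0.09. The median SE of the 44 was 0.03 in SW1417, 0.06 in LoVo and 0.08 in SW948. The number of calls thus does not rank these lines by size of change. DLD1, with 0 calls, had the largest median SE, 0.11, against 0.07 in HCT116, 0.05 in HT29 and 0.03 in SKCO1. The log2 fold change was below 0 for 44 of the 44 genes in HT29, 41 in HCT116, 41 in SW1417, 40 in SKCO1, 36 in LoVo, 31 in SW948 and 16 in DLD1. The share of all tested genes below 0 was not counted. All 4 libraries with 2-MiCit lay below all 4 control libraries for 39 of the 44 in HT29 (7.31% of all tested genes), 23 in HCT116 (17.2%), 26 in SKCO1 (12.5%) and 24 in SW1417 (7.68%). The same held for 10 in LoVo (6.43%), 3 in SW948 (2.71%) and 3 in DLD1 (6.1%). Conversely, all 4 treated libraries lay above all 4 controls for 3 in DLD1 (7.75% of all tested genes), 1 in LoVo (6.98%) and 1 in SKCO1 (10.4%).

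**Figure D2:**
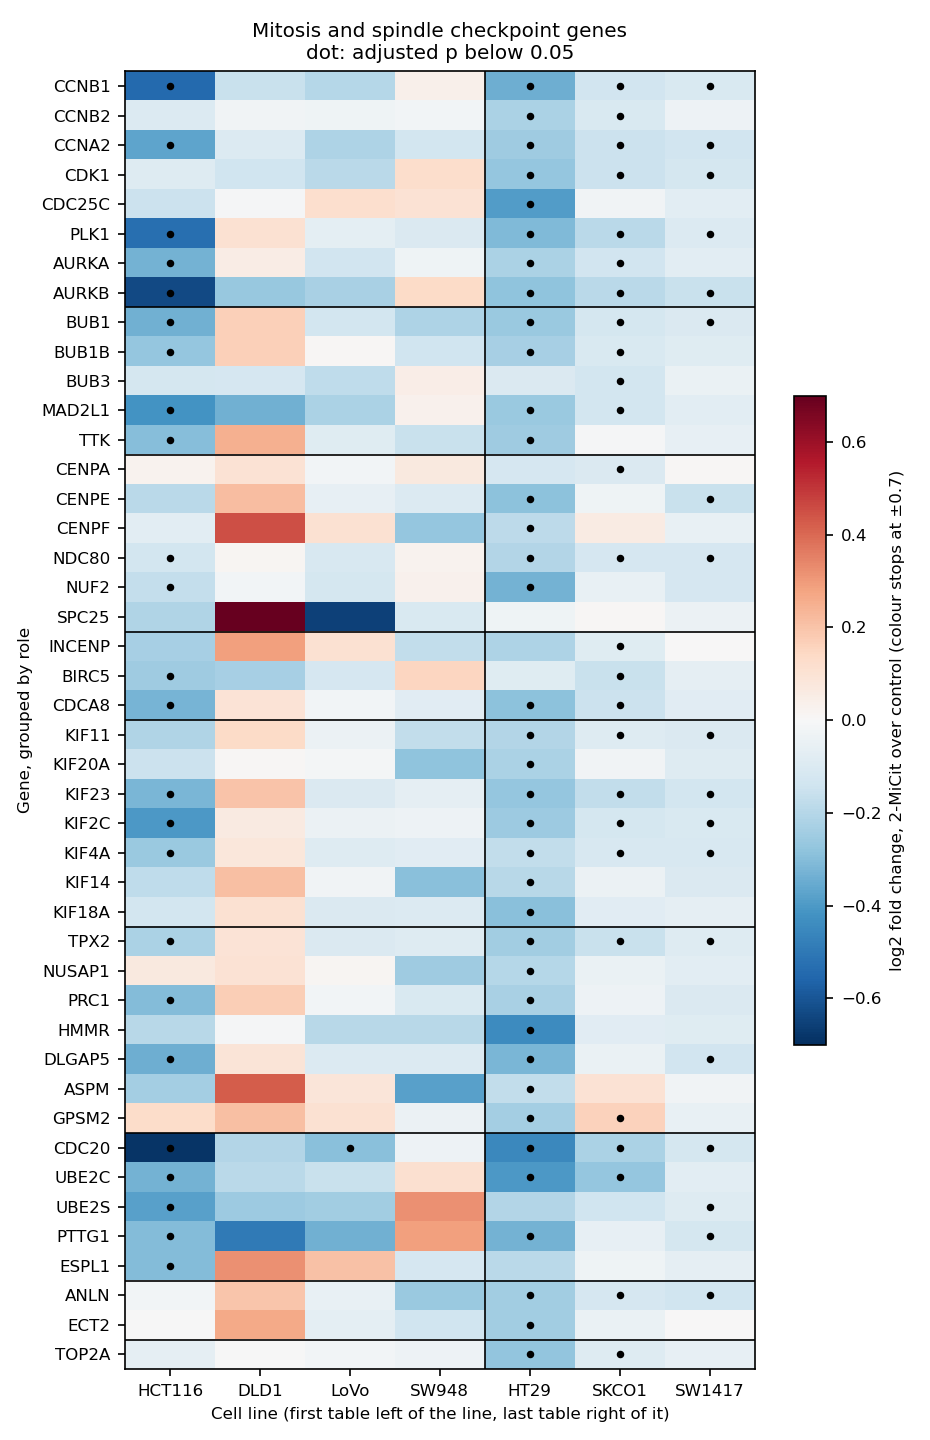
Log2 fold change, 2-MiCit over control, of each of the 44 genes (rows, grouped by role) in each line (columns), with a dot where the adjusted p was below 0.05. Blue (lower with 2-MiCit) fills the HT29 column, and the 37 dots of HT29, 24 of HCT116, 26 of SKCO1 and 18 of SW1417 contrast with 1 in LoVo and 0 in DLD1 and SW948. SPC25 in DLD1 lies beyond the colour range.

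Summed over the 44 genes, the level was 5557 ± 112 CPM with 2-MiCit and 6602 ± 169 CPM in the control in HT29 (SD, n = 4 each, as for all such sums). In HCT116 it was 6357 ± 113 CPM with 2-MiCit and 7639 ± 230 CPM in the control. These are the lines with the widest separation, and the 2-MiCit libraries lay below every control library in both. In SKCO1 the sums were 7001 ± 82.6 CPM with 2-MiCit and 7528 ± 52.4 CPM in the control, and in SW1417 they were 4755 ± 14.7 CPM with 2-MiCit and 5031 ± 9.89 CPM in the control. The groups were separate in both, by less than in HT29. In LoVo the sums were 5743 ± 117 CPM with 2-MiCit and 6079 ± 61.4 CPM in the control, and in SW948 they were 5997 ± 87.6 CPM with 2-MiCit and 6290 ± 141 CPM in the control. The groups were separate in LoVo and SW948 too. In DLD1 the sum was 6441 ± 92.8 CPM with 2-MiCit and 6304 ± 242 CPM in the control, a difference within the spread of the control libraries.

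**Figure D3:**
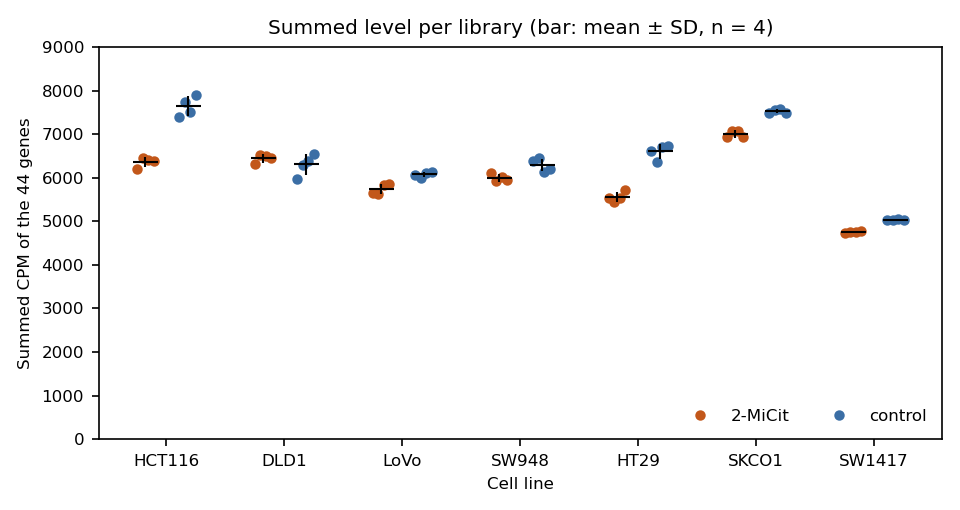
Summed CPM of the 44 genes (y axis) in each library, with 2-MiCit in orange left of control in blue for each line (x axis), and the mean ± SD of 4 libraries as a black cross. The 2-MiCit libraries lie below all control libraries in HCT116, LoVo, SW948, HT29, SKCO1 and SW1417, and the groups overlap in DLD1.

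CDC20, which activates the APC/C at the onset of anaphase, was the member called lower in the most lines. In HCT116, CDC20 (ENSG00000117399, chromosome 1, 43358955 to 43363203, GRCh38) had 270, 275, 295 and 270 CPM with 2-MiCit, against 451, 458, 447 and 430 CPM in the control. The groups were far apart, and the log2 fold change was -0.69 ± 0.05 (SE), 1.61-fold lower (adjusted p = 1.31e-05). In HT29 it had 140, 150, 142 and 156 CPM with 2-MiCit, against 195, 193, 207 and 209 CPM in the control. All 4 treated libraries were below all 4 controls here too, with a log2 fold change of -0.45 ± 0.04 (adjusted p = 0.000395).

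In SKCO1, CDC20 had 203, 206, 219 and 208 CPM with 2-MiCit, against 243, 238, 255 and 240 CPM in the control, a log2 fold change of -0.22 ± 0.03 (adjusted p = 0.000134). In SW1417 it had 155, 152, 146 and 152 CPM with 2-MiCit, against 168, 166, 169 and 156 CPM in the control, a log2 fold change of -0.12 ± 0.03 (adjusted p = 0.0172). The groups did not overlap in either line, and the SW1417 groups nearly touched. In LoVo, CDC20 had 172, 161, 177 and 166 CPM with 2-MiCit, against 189, 203, 208 and 227 CPM in the control, a log2 fold change of -0.29 ± 0.06 (adjusted p = 0.037). The LoVo groups were separate but wide, and the call was lost without any of 6 of the 8 single libraries (all 4 treated ones and control replicates 2 and 3; adjusted p between 0.0561 and 0.149). The SW1417 call did not hold when control replicate 1, 2 or 3 or 2-MiCit replicate 3 was left out. It was also lost when the 3 lines of the last table were fitted together (adjusted p = 0.0946).

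CDC20 was not called in DLD1 or SW948, although in DLD1 it was called by DESeq2 (adjusted p = 0.0198) and when the 4 lines were fitted together with edgeR (adjusted p = 0.0193). In the other 13 of the 15 alternatives tried it was not called in DLD1. Over all 15 its log2 fold change there ran from -0.24 to -0.05. In DLD1 it had 314, 310, 341 and 324 CPM with 2-MiCit, against 387, 368, 352 and 382 CPM in the control; the treated libraries were all lower, yet the adjusted p was 0.241 with a log2 fold change of -0.21 ± 0.07. In SW948 it had 147, 167, 149 and 158 CPM with 2-MiCit, against 151, 150, 171 and 165 CPM in the control, and the groups overlapped. Within the first table, the effect on CDC20 differed between lines (adjusted p of the interaction = 1.44e-05) and was lower in HCT116 than in DLD1 by -0.46 on the log2 scale (95% interval -0.61 to -0.31), than in LoVo by -0.39 (-0.54 to -0.24) and than in SW948 by -0.63 (-0.78 to -0.48).

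**Figure D4:**
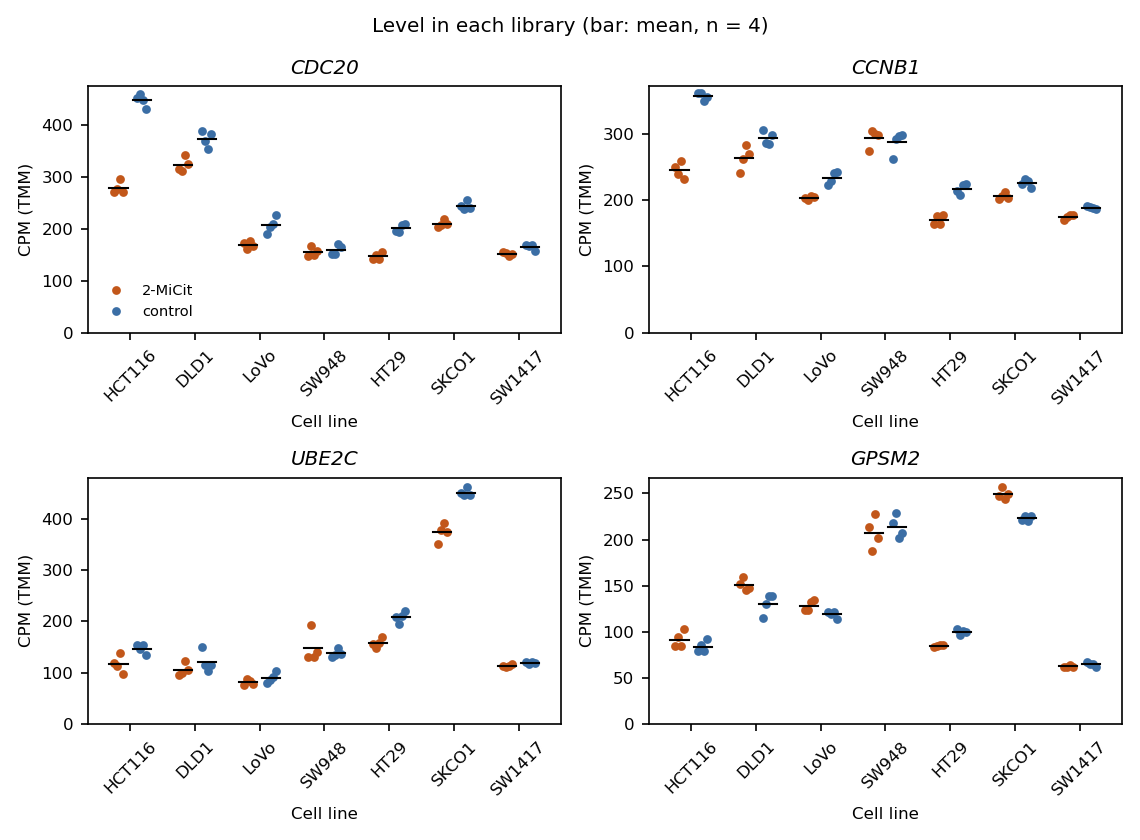
CPM with TMM scaling (y axes, from 0) of CDC20, CCNB1, UBE2C and GPSM2 in every library of the 7 lines (x axes), 2-MiCit in orange left of control in blue, with a bar at the mean of 4 libraries. CDC20 and CCNB1 are separated most widely in HCT116, UBE2C in SKCO1 and HT29, and GPSM2 is higher with 2-MiCit in SKCO1 and lower in HT29.

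The 8 mitotic cyclins, CDK1 and mitotic kinases, which trigger and carry out entry into mitosis, were called lower as 8 of 8 in HT29, 7 in SKCO1, 5 in HCT116 and 5 in SW1417. Their median log2 fold change was -0.28 in HT29, -0.14 in SKCO1, -0.35 in HCT116 and -0.10 in SW1417. CCNB1, cyclin B1 and the main partner of CDK1 at mitotic entry, was called in all 4 of these lines. In HCT116 CCNB1 had 250, 240, 259 and 231 CPM with 2-MiCit, against 362, 361, 350 and 356 CPM in the control. No treated library came near a control one, and the log2 fold change was -0.55 ± 0.05, 1.46-fold lower (adjusted p = 3.61e-05). In HT29 it had 164, 176, 164 and 178 CPM with 2-MiCit, against 213, 207, 222 and 223 CPM in the control, a log2 fold change of -0.34 ± 0.04 (adjusted p = 0.00106). In SKCO1 it had 201, 207, 212 and 203 CPM with 2-MiCit, against 225, 232, 228 and 219 CPM in the control, a log2 fold change of -0.13 ± 0.02 (adjusted p = 0.00189). The groups were separate in both lines, more narrowly in SKCO1. In SW1417 the same gene had 170, 175, 177 and 177 CPM with 2-MiCit, against 191, 189, 187 and 186 CPM in the control, a log2 fold change of -0.11 ± 0.02 (adjusted p = 0.0104), a call lost when the 3 lines were fitted together (adjusted p = 0.0846).

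In LoVo, CCNB1 had 203, 200, 207 and 204 CPM with 2-MiCit, against 223, 228, 241 and 242 CPM in the control; the groups did not overlap and the adjusted p was 0.0505, with a call by DESeq2 (adjusted p = 0.000912). In SW948 it had 274, 304, 300 and 298 CPM with 2-MiCit, against 262, 292, 296 and 298 CPM in the control, which overlapped, and its log2 fold change was 0.03 ± 0.07. In DLD1 it had 241, 262, 283 and 270 CPM with 2-MiCit, against 305, 286, 285 and 298 CPM in the control, with treated libraries lower and an adjusted p of 0.295. The effect was lower in HCT116 than in each of these: than in DLD1 by -0.37, than in LoVo by -0.34 and than in SW948 by -0.56 on the log2 scale (adjusted p = 0.00106, 0.00307 and 4e-06).

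AURKB, the kinase of the chromosomal passenger complex, which corrects faulty attachments, had 71.2, 65.6, 73.2 and 66.2 CPM with 2-MiCit, against 118, 104, 108 and 99.1 CPM in the control in HCT116. Its groups were well separated, with a log2 fold change of -0.63 ± 0.07, 1.55-fold lower (adjusted p = 8.32e-05). PLK1, a kinase of centrosome maturation and mitotic exit, had 159, 164, 170 and 155 CPM with 2-MiCit, against 229, 237, 238 and 228 CPM in the control in the same line. Its groups were also separate, with a log2 fold change of -0.53 ± 0.05 (adjusted p = 3.71e-05). In the other lines of the first table the log2 fold change of PLK1 was 0.11 ± 0.08 in DLD1, -0.07 ± 0.05 in LoVo and -0.10 ± 0.06 in SW948, none of them called, and the effect in HCT116 was lower than in each (differences of -0.61, -0.45 and -0.41).

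In HT29, PLK1 had 175, 183, 183 and 204 CPM with 2-MiCit, against 228, 216, 238 and 241 CPM in the control (adjusted p = 0.00559). In SKCO1 it had 155, 161, 171 and 165 CPM with 2-MiCit, against 184, 183, 193 and 183 CPM in the control (adjusted p = 0.00048). Every treated library was below every control in both lines. In SW1417 PLK1 had 125, 122, 122 and 123 CPM with 2-MiCit, against 130, 129, 132 and 134 CPM in the control, a difference of -0.09 ± 0.02 that passed the test (adjusted p = 0.0288) and was lost without any of 5 single libraries (2-MiCit replicates 2 and 3, control replicates 1, 3 and 4). That call was also lost when the 3 lines were fitted together (adjusted p = 0.307). CCNA2, cyclin A2 of S and G2 phase, fell by 0.25 on the log2 scale in HT29 and was also called in HCT116 (-0.37 ± 0.05), SKCO1 (-0.15 ± 0.03) and SW1417 (-0.13 ± 0.03), in the last of these not without 2-MiCit replicate 3 (adjusted p = 0.052). CDC25C, a phosphatase that activates CDK1, was called in HT29 alone, with a log2 fold change of -0.39 ± 0.05 (adjusted p = 0.00199), against -0.02 ± 0.05 in SKCO1; that effect was lower in HT29 than in SKCO1 by -0.36 (adjusted p = 0.0103).

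Of the 5 spindle checkpoint genes, 4 were called lower in HCT116, 4 in HT29, 4 in SKCO1 and 1 in SW1417, with a median log2 fold change of -0.30 in HCT116, -0.25 in HT29, -0.12 in SKCO1 and -0.07 in SW1417. BUB1, a kinase that recruits the checkpoint to kinetochores, was the 1 called in all 4. In HCT116 BUB1 had 137, 155, 137 and 153 CPM with 2-MiCit, against 168, 196, 178 and 195 CPM in the control (log2 fold change -0.34 ± 0.07, adjusted p = 0.00324). In HT29 it had 101, 98, 94.8 and 96.2 CPM with 2-MiCit, against 120, 112, 120 and 115 CPM in the control (log2 fold change -0.26 ± 0.04, adjusted p = 0.00211). The groups were separate in both lines. MAD2L1, which binds and inhibits CDC20, was lower in HCT116 by -0.42 ± 0.07 on the log2 scale (adjusted p = 0.00157) and was also called in HT29 and SKCO1. TTK, the kinase MPS1 that starts the checkpoint signal, was called in HCT116 (-0.30 ± 0.06) and HT29 (-0.25 ± 0.04), and BUB3, a scaffold of BUB1 and BUB1B that also works in interphase, in SKCO1 (-0.13 ± 0.02). For TTK the effect in HT29 was lower than in SKCO1 by -0.24 (adjusted p = 0.00998), while for BUB3 no difference between these lines was called.

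In the lines without calls, MAD2L1 and BUB1 show how the libraries lay. In DLD1 MAD2L1 had 115, 144, 149 and 135 CPM with 2-MiCit, against 209, 173, 149 and 153 CPM in the control. The highest control library stood well above the rest, the lowest control lay level with the highest treated library, and the adjusted p was 0.262. MAD2L1 was called there when the 4 lines were fitted together (adjusted p = 0.0183), and in the other 14 of the 15 alternatives it was not. In SW948 BUB1 had 171, 128, 152 and 153 CPM with 2-MiCit, against 186, 187, 165 and 165 CPM in the control, overlapping between groups (adjusted p = 0.522). Also in SW948, KIF20A, a kinesin of the central spindle, and NUSAP1, which bundles spindle microtubules, had log2 fold changes of -0.28 ± 0.11 and -0.25 ± 0.10, neither called (adjusted p = 0.522 for both).

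Among the 6 centromere and kinetochore genes, 4 were called lower in HT29 and 2 each in HCT116, SKCO1 and SW1417. The 2 in HCT116 are too few to set apart from the 18% of all tested genes called lower there. NDC80, the outer kinetochore protein that grips microtubules, was called in all 4, with log2 fold changes of -0.20 ± 0.05 in HT29, -0.13 ± 0.04 in HCT116, -0.12 ± 0.03 in SKCO1 and -0.12 ± 0.03 in SW1417. NUF2, its partner in the same complex, had a log2 fold change of -0.33 ± 0.05 in HT29 (adjusted p = 0.00186). CENPE, the kinesin that carries chromosomes to the spindle equator, had 67.5, 67.9, 67.8 and 67.2 CPM with 2-MiCit, against 72.4, 77.5, 77.1 and 74.4 CPM in the control in SW1417. This was the largest fall of the 44 genes in that line, at -0.16 ± 0.03 on the log2 scale (adjusted p = 0.00407), and its groups were separate. In HT29 CENPE was also called (-0.29 ± 0.04), and in SKCO1 it was not (-0.03 ± 0.03). CENPA, the histone H3 variant of the centromere, was called in SKCO1 alone (-0.10 ± 0.03, adjusted p = 0.0437), and the difference from HT29 was not called.

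SPC25, another subunit of the NDC80 complex, was the only member called lower in no line. It was very low in some of the first table. In DLD1 it had 4.68, 0, 3.14 and 5.11 CPM with 2-MiCit, against 0.507, 0.345, 0 and 1.83 CPM in the control, and in LoVo it had 0, 1.86, 1.18 and 0.777 CPM with 2-MiCit, against 0.684, 2.38, 2.96 and 0 CPM in the control. Libraries at 0 stood in both groups of each line, and the fitted log2 fold change of 2.24 ± 1.10 in DLD1 (adjusted p = 0.302) came from 0 to 80 deposited counts in a library with 2-MiCit and 0 to 29 in a control library. In HCT116, where it had 17.2 to 21.6 CPM with 2-MiCit and 20.8 to 24.7 CPM in the control, the log2 fold change was -0.21 ± 0.09 (adjusted p = 0.0948).

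The chromosomal passenger genes besides AURKB, which are INCENP, BIRC5 (survivin) and CDCA8 (borealin), were called lower as 3 of 3 in SKCO1, 2 in HCT116, 1 in HT29 and 0 in SW1417. CDCA8 was the one shared by the first 3 of these lines, with log2 fold changes of -0.32 ± 0.05 in HCT116 and -0.29 ± 0.05 in HT29. BIRC5, which was called in SKCO1 (-0.15 ± 0.03, adjusted p = 0.00109), had -0.08 ± 0.03 in HT29 (adjusted p = 0.162); no difference between these lines was called.

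The 7 mitotic kinesins were called lower as 7 of 7 in HT29, 4 in SKCO1, 4 in SW1417 and 3 in HCT116. KIF23 and KIF4A, motors of the central spindle, and KIF2C, which depolymerizes microtubules at centromeres, were called in all 4 lines. KIF2C in HCT116 had 126, 124, 133 and 127 CPM with 2-MiCit, against 166, 167, 169 and 172 CPM in the control. The groups were tight and far apart, with a log2 fold change of -0.40 ± 0.04 (adjusted p = 9.59e-05). In DLD1 KIF2C had 126, 125, 131 and 126 CPM with 2-MiCit, against 123, 121, 123 and 120 CPM in the control, a log2 fold change of 0.06 ± 0.06 that was not called. The effect in HCT116 was lower than in DLD1 by -0.44 (95% interval -0.56 to -0.32), than in LoVo by -0.35 and than in SW948 by -0.35.

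KIF23 had 101, 94.7, 101 and 108 CPM with 2-MiCit, against 124, 119, 126 and 120 CPM in the control in HT29 (log2 fold change -0.27 ± 0.04, adjusted p = 0.0042). In SKCO1 KIF23 had 123, 126, 124 and 123 CPM with 2-MiCit, against 135, 147, 140 and 138 CPM in the control (log2 fold change -0.17 ± 0.03, adjusted p = 0.000585). In SW1417 it had 72.6, 75.5, 73.1 and 77.6 CPM with 2-MiCit, against 82.6, 82.5, 81 and 81.2 CPM in the control (log2 fold change -0.13 ± 0.03, adjusted p = 0.0108). The groups were separate in all 3 lines. The SW1417 call was lost without 2-MiCit replicate 3 (adjusted p = 0.054) and when the 3 lines were fitted together (adjusted p = 0.0548), and the SKCO1 call with limma (adjusted p = 0.0752). KIF14 and KIF18A, motors of cytokinesis and of chromosome alignment, and KIF20A were called in HT29 and in no other line. For KIF14 no difference of HT29 from SKCO1 or SW1417 was called (adjusted p = 0.105 and 0.316). For KIF18A the effect in HT29 was lower than in SW1417 (-0.24, adjusted p = 0.042), while the difference from SKCO1 was not called (adjusted p = 0.0604). For KIF20A it was lower than in SKCO1 (-0.19, adjusted p = 0.0456), while the difference from SW1417 (adjusted p = 0.187) and the interaction over the 3 lines (adjusted p = 0.0756) were not called.

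The 7 proteins that build and orient spindle microtubules had both directions of change in the last table. All 7 were called lower in HT29, 3 in HCT116, 2 in SW1417, and in SKCO1 1 was lower and 1 higher. HMMR, a spindle pole protein, had 52, 51.5, 46.7 and 45.4 CPM with 2-MiCit, against 70.6, 70.4, 64 and 60 CPM in the control in HT29. These groups stood apart, with a log2 fold change of -0.44 ± 0.06 (adjusted p = 0.00259). In SKCO1 the value was -0.08 ± 0.03 and in SW1417 -0.09 ± 0.03, neither called, and the effect in HT29 was lower than in SKCO1 by -0.36 (95% interval -0.49 to -0.23). TPX2, which activates AURKA and nucleates spindle microtubules, was called in HCT116 and in all 3 lines of the last table, at -0.24 ± 0.03 in HT29, -0.16 ± 0.02 in SKCO1 and -0.09 ± 0.02 in SW1417. In SW1417 it had 200, 203, 198 and 196 CPM with 2-MiCit, against 215, 216, 211 and 207 CPM in the control, and that call was lost without any of 6 single libraries (2-MiCit replicates 1, 3 and 4, control replicates 1, 2 and 3). Fitting the 3 lines together lost it too (adjusted p = 0.0956). PRC1, which bundles antiparallel microtubules at the spindle midzone, had 215, 213, 214 and 216 CPM with 2-MiCit, against 249, 269, 268 and 275 CPM in the control in HCT116. Its treated libraries were nearly equal and all below the controls, with a log2 fold change of -0.31 ± 0.04 (adjusted p = 0.000569). DLGAP5, a stabilizer of spindle fibres at kinetochores whose start region is printed above, was called in HCT116 (-0.34 ± 0.06), HT29 (-0.32 ± 0.04) and SW1417 (-0.13 ± 0.03).

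GPSM2, the protein LGN that anchors the spindle to the cell cortex and sets its orientation, was called in opposite directions. In SKCO1 GPSM2 (ENSG00000121957, chromosome 1, 108875350 to 108934545) had 247, 258, 244 and 250 CPM with 2-MiCit, against 221, 225, 220 and 226 CPM in the control. All treated libraries were above all controls, with a log2 fold change of 0.16 ± 0.02 (adjusted p = 0.000273). In HT29 it had 84, 84.1, 85.4 and 85.8 CPM with 2-MiCit, against 103, 96.9, 101 and 99.6 CPM in the control, all treated libraries below all controls (-0.24 ± 0.03, adjusted p = 0.00215). In SW1417 it had 62.2, 62.1, 63.5 and 61.9 CPM with 2-MiCit, against 67.4, 64.6, 64.6 and 61.9 CPM in the control; the groups overlapped and the change was not called. The effect in HT29 was lower than in SKCO1 by -0.39 (95% interval -0.47 to -0.32), the smallest interaction p of the 44 genes in the last table (adjusted p = 4.19e-06). In the first table the log2 fold change was 0.13 ± 0.08 in HCT116, 0.21 ± 0.08 in DLD1, 0.11 ± 0.05 in LoVo and -0.04 ± 0.08 in SW948, none of them called. In DLD1 GPSM2 had 151, 159, 146 and 148 CPM with 2-MiCit, against 115, 130, 138 and 139 CPM in the control, with every treated library above every control. All 15 alternatives left it uncalled in DLD1, with log2 fold changes from 0.02 to 0.24. Its HT29 and SKCO1 calls kept their sign and side of the threshold under each of the 15 alternatives tried.

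Of the 5 genes of anaphase onset, 5 were called lower in HCT116, 3 in HT29, 3 in SW1417, 2 in SKCO1 and 1 in LoVo. Besides CDC20 these are UBE2C and UBE2S, the ubiquitin-conjugating enzymes of the APC/C, PTTG1 (securin) and ESPL1 (separase). UBE2C had 351, 377, 391 and 373 CPM with 2-MiCit, against 449, 445, 461 and 445 CPM in the control in SKCO1. This was the largest fall there, at -0.27 ± 0.03 on the log2 scale (adjusted p = 3.58e-05), with the groups well apart. In HT29 UBE2C had 155, 149, 157 and 170 CPM with 2-MiCit, against 208, 195, 211 and 220 CPM in the control, also separate (-0.40 ± 0.05, adjusted p = 0.00108). In SW1417 it had 113, 112, 114 and 116 CPM with 2-MiCit, against 120, 118, 120 and 120 CPM in the control; the treated libraries were all lower but the change was -0.07 ± 0.02 (adjusted p = 0.0673; 0.0496 with DESeq2). In HCT116 all 5 log2 fold changes lay between -0.69 and -0.30, with UBE2S at -0.38 ± 0.10 and ESPL1 at -0.30 ± 0.07. PTTG1 was called in HCT116, HT29 and SW1417; it has a near-identical paralogue, PTTG2, and KIF4A has KIF4B, so the values of both depend on how reads were shared between copies.

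ANLN, anillin of the contractile ring, had 87.5, 90.9, 87.5 and 92.1 CPM with 2-MiCit, against 97.2, 96.7, 99.1 and 101 CPM in the control in SW1417. The groups were separate, with a log2 fold change of -0.14 ± 0.03 (adjusted p = 0.00652), and ANLN was also called in HT29 (-0.24 ± 0.05) and SKCO1 (-0.12 ± 0.02). In HCT116, where the groups overlapped, it was -0.02 ± 0.11. ECT2, which activates RhoA at the cleavage furrow, was called in HT29 alone (-0.25 ± 0.05, adjusted p = 0.00882), and that effect was lower than in SKCO1 by -0.19 (adjusted p = 0.0177).

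TOP2A, the topoisomerase that untangles sister chromatids, had 519, 505, 521 and 536 CPM with 2-MiCit, against 637, 606, 638 and 635 CPM in the control in HT29. Every treated library was below every control with a log2 fold change of -0.27 ± 0.03 (adjusted p = 0.00106). In SKCO1 TOP2A had 523, 525, 493 and 502 CPM with 2-MiCit, against 537, 565, 530 and 543 CPM in the control (-0.09 ± 0.03, adjusted p = 0.032), a call lost without any of 5 single libraries (2-MiCit replicates 3 and 4, control replicates 1, 2 and 4). In SW1417 it had 448, 453, 447 and 435 CPM with 2-MiCit, against 464, 476, 456 and 459 CPM in the control (-0.06 ± 0.02, adjusted p = 0.147), separate but not called. The effect in HT29 was lower than in SKCO1 by -0.18 (adjusted p = 0.00871). In HCT116 it had 251, 276, 275 and 288 CPM with 2-MiCit, against 261, 288, 273 and 316 CPM in the control; these groups overlapped and the log2 fold change was -0.06 ± 0.07.

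Of the 44, 14 were called lower in all 3 lines of the last table, 10 in 2 of them, 18 in 1 and 2 in none. HT29 called 84.1% of the 44, the share of another line's calls that a list drawn without regard to HT29 would hold on average, and the overlaps with HT29 are to be read against it. HCT116 and HT29 shared 21 genes, 87.5% of those called in HCT116 and 56.8% of those in HT29. SKCO1 and HT29 also shared 21, 84% of those called in SKCO1 and 56.8% of those in HT29. SW1417 and HT29 shared 17, 94.4% of those called in SW1417 and 45.9% of those in HT29. Over the 7 lines, CDC20 was called lower in 5, 10 genes in 4, 10 in 3, 8 in 2, 14 in 1 and SPC25 in none. The 10 called in 4 lines were CCNB1, CCNA2, PLK1, AURKB, BUB1, NDC80, KIF23, KIF2C, KIF4A and TPX2, each of them in HCT116, HT29, SKCO1 and SW1417.

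The size of the effect differed between lines for a part of the genes, by the treatment-by-line interaction of 1 edgeR fit per table. Among HT29, SKCO1 and SW1417, 21 of the 44 differed, against 5.49% of all tested genes. The effect was lower in HT29 than in SKCO1 for 17 genes (1.68% of all genes) and lower in HT29 than in SW1417 for 20 (1.45%). Between SKCO1 and SW1417 only GPSM2 differed, higher in SKCO1 (0.578% of all genes). Among HCT116, DLD1, LoVo and SW948, 12 of 44 differed, against 18% of all tested genes. The effect was lower in HCT116 than in DLD1 for 14 genes (3.13% of all genes), than in LoVo for 5 (2.25%) and than in SW948 for 7 (9.12%), a share closer to that of all genes. Between DLD1 and SW948 the effect was lower in DLD1 for MAD2L1 and PTTG1 (7.74% of all genes) and higher in DLD1 for BUB1, TTK and PRC1 (5.49%). The first share is below that of all genes and the second is near it. Between DLD1 and LoVo 0 members differed (0.133% of all genes lower in DLD1, 0.373% higher), and between LoVo and SW948 also 0 (0% lower in LoVo, 0.038% higher). No test was made across the 2 tables, which the authors processed separately.

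Genes of DNA replication, the step of the cell cycle before mitosis, were set beside the 44 as a list of 36 (helicase, polymerase and origin genes). In HCT116 both lists were lower, with 32 of the 36 replication genes called lower and a median log2 fold change of -0.33. There 18% of all tested genes were called lower. MCM7, a helicase subunit, had 400 ± 11.3 CPM with 2-MiCit and 540 ± 9.34 CPM in the control there (SD, n = 4 each; adjusted p = 6.26e-05). In HT29 1 of the 36 was called lower, RPA3 (-0.25, adjusted p = 0.0264), near the 3.02% of all tested genes called lower. The median there was 0.00, beside 37 of the 44 mitosis genes called lower. The SEs of the 36 in HT29 ran from 0.04 (RFC1) to 0.25 (POLA2), against a median SE of 0.05 for the 44. The lack of calls in HT29 therefore does not show that the replication genes were unchanged. In SKCO1 24 of 36 were called lower (median -0.15), and in SW1417 5 of 36 (median -0.07), against 10.8% and 4.05% of all tested genes. In DLD1, LoVo and SW948 0 of 36 were called (0%, 0.702% and 0% of all tested genes lower). The median was -0.15 in DLD1, -0.13 in LoVo and 0.00 in SW948. The lists were not tested against each other.

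**Figure D5:**
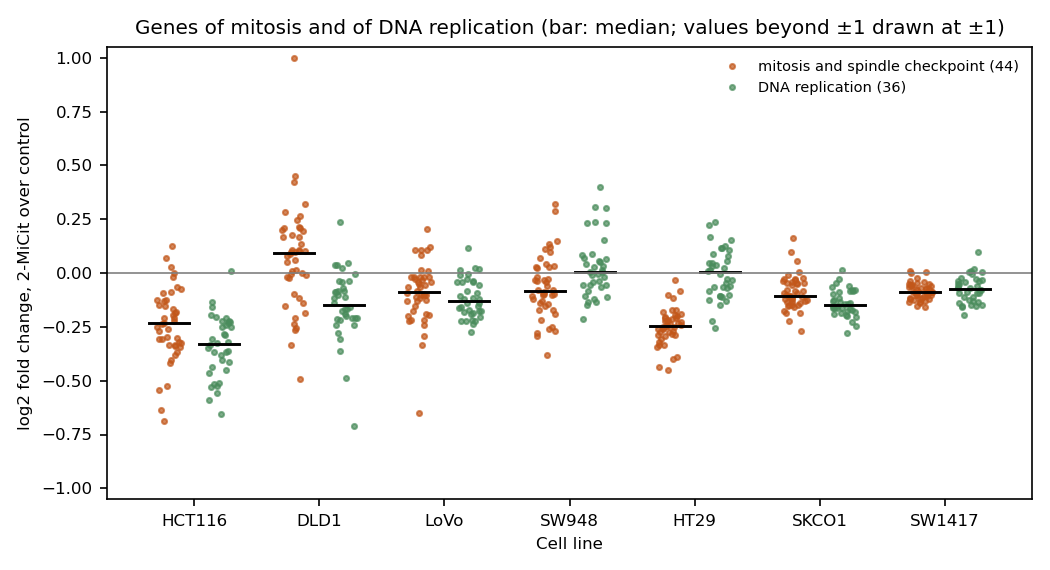
Log2 fold change, 2-MiCit over control (y axis), of the 44 mitosis and spindle checkpoint genes (orange) and of 36 DNA replication genes (green) in each line (x axis), one point a gene, with a bar at the median. Both medians are below 0 in HCT116 (-0.23 and -0.33), while in HT29 the mitosis median is -0.25 and the replication median 0.00. SEs, which ran up to 0.25 for the replication genes in HT29, are not drawn.

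Of 26 further spindle, centrosome and cytokinesis genes tested, 15 were called lower in HT29, 13 in HCT116, 11 in SKCO1 and 4 in SW1417, with 0 higher in each. The shares of all tested genes called lower were 3.02% in HT29, 18% in HCT116, 10.8% in SKCO1 and 4.05% in SW1417. Those called higher were 4.65%, 19%, 8.1% and 2.94%, in the same order. The counts of this and the following lists are to be read against these shares. RACGAP1, the partner of KIF23 and ECT2 at the central spindle, was 86.5 ± 2.94 CPM with 2-MiCit and 108 ± 1.22 CPM in the control in HT29 (SD, n = 4 each; log2 fold change -0.31, adjusted p = 0.00079). TACC3, a spindle protein, was called in HCT116 (-0.41) and SKCO1 (-0.16). Of 27 other kinetochore and centromere genes, 9 were called lower in HCT116, 7 in HT29, 9 in SKCO1 and 4 in SW1417, where PMF1, a kinetochore protein, was called higher (0.12, adjusted p = 0.035); SGO2, a guardian of centromeric cohesion, was lower in HCT116 (-0.39), HT29 (-0.35) and SW1417 (-0.17). Of 13 condensin and cohesin genes, 7 were called lower in HCT116, 2 in HT29, 7 in SKCO1 and 4 in SW1417, among them the condensin subunit NCAPH in HCT116 (-0.41), HT29 (-0.21) and SKCO1 (-0.14).

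Of the 16 APC/C subunits and inhibitors, 6 were called lower in HCT116, 2 in HT29, 1 in SKCO1 and 0 in SW1417. In SKCO1 and SW1417 these shares lie below those of all genes given above (10.8% and 4.05%). FBXO5, the inhibitor EMI1, was lower in HCT116 (-0.38, adjusted p = 0.000322) and SKCO1 (-0.20, adjusted p = 0.0026), and the subunit ANAPC16 was higher in HCT116 (0.65, adjusted p = 7.29e-05). Of 15 transcription factors of G2 and M genes, 5 were called lower in HCT116, 1 in HT29, 7 in SKCO1 and 1 in SW1417, with 1 higher in each of HCT116, SKCO1 and SW1417. The single calls in HT29, SKCO1 and SW1417 are too few to set apart from the shares of all genes. The 1 higher in HCT116 is below the share of all genes called higher there. MYBL2, the B-MYB that activates these promoters, was 150 ± 3.86 CPM with 2-MiCit and 215 ± 3.2 CPM in the control in HCT116 (SD, n = 4 each; -0.52, adjusted p = 2.51e-05), and was also lower in SKCO1 (-0.23) and SW1417 (-0.17). FOXM1 was lower in HCT116 (-0.34, adjusted p = 0.000363). RBL2, the p130 of the repressive DREAM complex, was higher in HCT116, at 47.0 ± 3.46 CPM with 2-MiCit and 25.1 ± 2.1 CPM in the control (0.90, adjusted p = 3.92e-05), and in SKCO1 (0.19, adjusted p = 0.000434). E2F5, an E2F protein that works with p107 and p130, was higher in SW1417 (0.13, adjusted p = 0.0295).

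Of 19 regulators of mitotic entry and proliferation markers, 8 were called lower and 2 higher in HCT116, 7 lower in HT29, 6 lower in SKCO1 and 3 lower in SW1417. The 2 higher in HCT116 are a smaller share than the 19% of all genes called higher there. CDKN1A, the CDK inhibitor p21, was 310 ± 23.7 CPM with 2-MiCit and 178 ± 10.7 CPM in the control in HCT116 (SD, n = 4 each; 0.80, adjusted p = 2.84e-05), and was called lower in SW1417, at 70.6 ± 1.63 CPM with 2-MiCit and 78.9 ± 1.85 CPM in the control (-0.16, adjusted p = 0.0038). PKMYT1, a kinase that holds CDK1 inactive, was lower in SKCO1 (-0.24, adjusted p = 0.000125), and CKS1B, a small CDK-binding protein, in HT29 (-0.32, adjusted p = 0.00108).

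Transcript length ran with the changes in some lines. Across the 44 genes, the Spearman correlation of log2 fold change with the log2 length of the longest transcript was 0.57 in DLD1, 0.50 in LoVo and -0.55 in SW948, and 0.22 to 0.38 in the other 4 lines. This is a description over 44 genes of the same libraries. In DLD1 it was 0.39 without control replicate 1, a library in which long genes were low, and in SW948 -0.47 without 2-MiCit replicate 2. With the length trend of each library removed, the count called lower was 4 in LoVo and 0 in DLD1 and SW948. Of all genes, 341 were then called lower in LoVo, 6 in DLD1 and 0 in SW948.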

How the data were processed

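RNA was measured in 56 libraries, 4 with 2-MiCit and 4 control in each of 7 cell lines, with a stranded mRNA kit per the labels. The authors deposited whole-number counts per gene for 2 sets of lines, made per the submitters' processing notes with bcl2fastq 2.20.0, Trimmomatic 0.39, Salmon 1.5.0 and DESeq2 on GRCh38.p13. Strand use in the counting and the length of treatment were not given in any source used here. The normalized counts that the authors deposited, a linear signal, served 1 alternative. Salmon shares reads between near-identical transcripts.

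Each line was fitted alone with edgeR 4.0.16 (R 4.3.3; filterByExpr, TMM, robust quasi-likelihood F test, two-sided, Benjamini-Hochberg over all tested genes, called below 0.05). Standard errors come from this fit, and levels are CPM with TMM factors, computed from the deposited counts. Levels of the cell type markers are CPM without TMM factors. Intervals of differences are 1.96 SE. Differences between lines were tested in 1 fit per table. Symbols came from a gene name table, with 1140 and 1162 identifiers unmatched (first and last table). Coordinates and transcript lengths came from GENCODE (GRCh38) and promoters from RefSeq (GRCh38.p14). The analysis was tested on simulated counts.

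The 44 genes and the other lists were chosen with earlier results of these data known. Genes for values by library were picked by rule. Per table these were the 6 called in the most lines and the 4 with the smallest interaction p. Per line they were the 3 largest called changes in each direction, or, with none called, the 3 smallest p. Genes called in opposite directions were added. Not all picked genes have such values above, among them AURKB in SW1417 and CCNA2 in HT29, SKCO1 and SW1417. Outside the rule, BUB1 in HCT116 and HT29, TOP2A in HCT116 and SPC25 were shown by library. Of other lists, genes were taken by smallest p from those called. Further members were named to illustrate their role, after their values were seen. Alternatives were DESeq2 1.42.0, no or a stricter filter (1 CPM), a replicate block, removal of the length trend, 1 fit per table, leaving out each library and limma 3.58.1 on log2(normalized count + 1).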

Additional observations from a re-analysis of the deposited data

Results flagged for a closer look

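In 4 of the 122 groups of 4 libraries looked at, 1 library stood apart from the other 3; chance alone gives about 1 group in 20. In SW948 with 2-MiCit, PLK1 was at 116 CPM in replicate 3, with the other libraries at 128 to 130 CPM, and KIF20A was at 54.6 CPM in replicate 2, with the others at 75.8 to 80.1 CPM. In the HT29 control, TOP2A was at 606 CPM in replicate 2, with the others at 635 to 638 CPM. In the SKCO1 control, PLK1 was at 193 CPM in replicate 3, with the others at 183 to 184 CPM.

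The effect of 2-MiCit differed between the 4 lines of the first table for 12 of the 44 genes by edgeR's quasi-likelihood test of the treatment-by-line interaction. The adjusted p is given in brackets after each: CCNB1 (3.27e-05), PLK1 (1.31e-05), AURKA (0.00137), AURKB (0.00474), BUB1 (0.0326), TTK (0.0159), CDCA8 (0.0133), KIF23 (0.0479), KIF2C (4.14e-05), PRC1 (0.00536), CDC20 (1.44e-05) and ESPL1 (0.0364).

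The effect differed between the 3 lines of the last table for 21 of the 44 genes by the same test, again with the adjusted p in brackets: CCNB1 (0.00215), CCNB2 (0.0304), CDC25C (0.0107), PLK1 (0.046), BUB1 (0.0153), TTK (0.0114), CENPE (0.00963), NUF2 (0.00641), CDCA8 (0.024), KIF18A (0.039), TPX2 (0.0261), PRC1 (0.0172), HMMR (0.00158), DLGAP5 (0.00441), ASPM (0.0172), GPSM2 (4.19e-06), CDC20 (0.000876), UBE2C (0.00153), PTTG1 (0.00441), ECT2 (0.00316) and TOP2A (0.00153). GPSM2 was the one called in opposite directions, higher in SKCO1 and lower in HT29.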

How the results depend on the processing

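The counts of genes called lower in HCT116 and HT29 stayed within 1.5 times of the values above under every alternative, and in DLD1 and SW948 they were 0 without any single library. DESeq2 called 1 gene lower in DLD1 and 8 in LoVo, and a fit over the lines of a table called 2 in DLD1 and 6 in SW1417. Of all genes, DESeq2 called 150 lower in DLD1 and 477 in LoVo, and the fit over lines 619 in DLD1 and 227 in SW1417. In LoVo the stricter filter gave 2 and removal of the length trend 4 (125 and 341 of all genes, against 96 in the main fit). limma on the authors' normalized counts, chosen after seeing the data, called 13 lower in SKCO1 and 1 in SW1417 (761 and 125 of all genes). Leaving out 1 library gave 0 to 7 called lower and 0 to 1 higher in LoVo with medians of -0.102 to -0.062, 7 to 18 lower in SW1417, and 20 to 23 lower and 1 to 2 higher in SKCO1 with medians of -0.111 to -0.0873. It gave 20 to 27 lower in HCT116, 28 to 36 in HT29, and 9 to 17 interaction genes in the first table and 15 to 22 in the last. Of all genes, these fits called 4 to 540 lower in LoVo and 303 to 670 in SW1417. They called 1971 to 2630 in HCT116, 153 to 520 in HT29 and 1147 to 1730 in SKCO1. The interaction was not counted over all genes in these fits, so its member counts have no share beside them. The causes were not tested. CCNB1 in SW948, which was not called, turned from 0.03 to -0.0591 with the length trend removed, and ran from -0.00679 to 0.066 with 1 library left out (below 0 without control replicate 1).

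Libraries of the same number did not deviate together in every pair (correlations of 0.08 to 0.28 in HCT116 and -0.32 to 0.19 in the other lines), so the numbers were not taken to pair them. In HCT116, 7 of 8 libraries correlated best with the library of their own number, a hint from the data and not from the design. With a replicate block, 35 genes were called lower and 1 higher in HCT116 (GPSM2, 0.13, adjusted p = 0.0139 by edgeR). There were 41 lower in HT29, 26 in SKCO1, 20 in SW1417 and 0 in LoVo, and the interaction counts were 11 and 30. Under the block too, the interaction was not counted over all genes. Of all genes, the block called 3348 lower in HCT116 (2489 without it), 1034 in HT29 (419) and 1853 in SKCO1 (1589). It called 658 in SW1417 (570) and 102 in LoVo (96). Counting error is larger in the first table, whose libraries held fewer counts. SPC25 had 0 to 80 counts in a DLD1 library and 0 to 43 in a LoVo library; the part of depth in this spread was not tested.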
